A study of Mus musculus with 6 samples.

Results

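The genes Gata1, Klf1, Tal1, Nfe2, Gfi1b, Zfpm1, Lmo2, Ldb1 and Bcl11a encode 9 transcription factors and cofactors of the red cell and platelet lineages. They were chosen by name, and all 9 have a row among the 23170 genes of the table that the authors deposited. That table compares RNA of bone under the joint cartilage (subchondral bone) of the mandibular condyle, the part of the mouse lower jaw that moves in the temporomandibular joint, between 3 libraries after partial discectomy and 3 after sham operation. Partial discectomy removes part of the disc of that joint. All mice were labelled wild type with no strain named, were anesthetized with isoflurane and had surgery on 1 side, from which the bone was dissected. The age label reads P6w+PO2w in both groups, with 6 and 2 weeks after prefixes that it does not spell out. The sample descriptions end in LPD for partial discectomy and Rctrl for sham, and anything further that those letters mark cannot be told apart from the surgery. They begin with the numbers 2, 4 and 6 for partial discectomy and 1, 5 and 6 for sham, so that 6 stands in both groups, and whether it marks a shared animal or batch is not said. The labels leave unsaid whether each library is a different mouse, and the spread behind the p-values may therefore be technical.

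Of the 9 factors, 7 rose after partial discectomy and 0 fell at an adjusted p under 0.05 by the authors' deposited table, which called 2.28% of all 23170 genes higher and 0.104% lower. The 7 were Nfe2, Tal1, Klf1, Gata1, Lmo2, Zfpm1 and Gfi1b, with ratios of the partial discectomy mean to the sham mean between 2.62 and 6.50 per the authors' deposited table. Nfe2, the large subunit of the platelet and red cell factor NF-E2, had the smallest p-value of all 23170 genes per the authors' deposited table, 8.17e-07. Bcl11a, a repressor best known for silencing fetal globin genes, had a ratio of 3.42 with an adjusted p of 0.0684 per the authors' deposited table. Ldb1, an adaptor that bridges the DNA-bound factors, had a ratio of 1.05 per the authors' deposited table. The median log2 ratio over the 9 factors was 1.78, where it was 0.08 over all genes. Centring on the summed group means instead would lower every log2 ratio by 0.13, after which the 95% limits of all 7 still lie above no change. The factors were chosen with earlier results of these data known, so their count and median describe them and are no test of them as a group.

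Blood cells of the red and platelet lineages share a precursor and much of their transcription machinery. GATA1 binds DNA through zinc fingers, recruits FOG1, the product of Zfpm1, and joins TAL1, LMO2 and LDB1 in a complex that sits on GATA motifs next to E-boxes and brings enhancers to their promoters. KLF1 binds CACCC boxes of red cell genes, while NF-E2 acts late in both lineages and is needed for platelet release. In bulk tissue more cells of a type and more RNA per cell cannot be told apart, and mouse bone holds marrow in which these lineages mature.

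All 9 genes are protein-coding. Their coordinates in that table matched the GENCODE M21 annotation of mm10 for 9 of 9, once the deposited end, which lies just past the last base, was moved back to it. Gata1 lies on chromosome X from 7959260 to 7978071 on the minus strand, Klf1 on chromosome 8 from 84901928 to 84905291 on the plus strand and Tal1 on chromosome 4 from 115056426 to 115071755 on the plus strand. Nfe2 spans 103248212 to 103258403 on the minus strand of chromosome 15, and Gfi1b 28609450 to 28621982 on the minus strand of chromosome 2. Zfpm1 spans 122282141 to 122337251 on the plus strand of chromosome 8, Lmo2 103957986 to 103981878 on the plus strand of chromosome 2, Ldb1 46031570 to 46045214 on the minus strand of chromosome 19 and Bcl11a 24078056 to 24174123 on the plus strand of chromosome 11.

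Promoters from 250 bases before to 50 after an annotated start were available from RefSeq (GRCm38.p6, the same assembly as mm10) for 7 of the 9 factors, with 10 starts in all. The promoters of 4 genes that rose and of Ldb1 at its first start are shown as examples, each on its gene's strand. Capitals mark matches, on either strand, to any of the GATA motifs AGATAA, then the form TGATAA, then the form AGATAG, and last the form TGATAG, to the CACCC box, and to E-boxes of the TAL1 type, which read CAGATG or in the other form CAGCTG. The windows are chr8:84901732-84902031 on the plus strand for Klf1, chrX:7967861-7968160 on the minus strand for Gata1, chr4:115056176-115056475 on the plus strand for Tal1, chr2:28621933-28622232 on the minus strand for Gfi1b and chr19:46045262-46045561 on the minus strand for Ldb1.
Klf1: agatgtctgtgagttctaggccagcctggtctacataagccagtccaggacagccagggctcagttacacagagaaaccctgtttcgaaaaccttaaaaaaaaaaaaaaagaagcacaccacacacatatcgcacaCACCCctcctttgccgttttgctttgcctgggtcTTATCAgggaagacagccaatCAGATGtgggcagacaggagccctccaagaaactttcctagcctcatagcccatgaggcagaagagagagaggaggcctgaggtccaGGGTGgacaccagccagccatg
Gata1: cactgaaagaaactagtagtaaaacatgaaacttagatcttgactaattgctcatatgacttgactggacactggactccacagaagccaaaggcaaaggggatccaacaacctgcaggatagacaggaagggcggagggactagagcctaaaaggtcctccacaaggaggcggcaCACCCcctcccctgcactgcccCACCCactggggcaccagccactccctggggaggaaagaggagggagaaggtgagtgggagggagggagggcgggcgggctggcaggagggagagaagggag
Tal1: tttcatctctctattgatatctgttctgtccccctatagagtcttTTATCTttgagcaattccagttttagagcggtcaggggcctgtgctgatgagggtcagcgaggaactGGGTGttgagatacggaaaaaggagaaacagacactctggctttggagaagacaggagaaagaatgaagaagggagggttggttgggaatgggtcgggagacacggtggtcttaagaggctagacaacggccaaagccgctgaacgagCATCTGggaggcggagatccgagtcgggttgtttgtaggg
Gfi1b: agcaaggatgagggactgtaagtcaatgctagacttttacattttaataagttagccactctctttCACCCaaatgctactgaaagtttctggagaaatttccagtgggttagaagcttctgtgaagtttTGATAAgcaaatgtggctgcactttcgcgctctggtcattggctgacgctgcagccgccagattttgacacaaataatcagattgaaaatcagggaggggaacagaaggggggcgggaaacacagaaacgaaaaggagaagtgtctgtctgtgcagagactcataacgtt
Ldb1: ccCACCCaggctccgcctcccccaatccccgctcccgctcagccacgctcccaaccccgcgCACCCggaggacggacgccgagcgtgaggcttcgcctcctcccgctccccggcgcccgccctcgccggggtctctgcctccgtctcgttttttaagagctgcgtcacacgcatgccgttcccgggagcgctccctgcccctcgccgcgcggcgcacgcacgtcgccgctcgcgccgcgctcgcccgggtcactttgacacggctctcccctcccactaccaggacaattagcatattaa

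The Klf1 promoter held a GATA motif that begins 80 bases before the start and an E-box that begins 59 bases before it, with 15 bases between them. A GATA motif and an E-box at most 30 bases apart occurred in 2.77% of the 32851 promoters of the RefSeq table and in 1 of the 10 promoters of the factors. GATA motifs, with or without an E-box, were in 4 of the 10 promoters, at single starts of Klf1, Tal1, Gfi1b and Ldb1, and in 29.8% of all promoters. The Ldb1 start that held them is not among those shown, and its GATA motifs begin 240 and 200 bases before it. The promoter of Zfpm1, which also rose, and the other start of Tal1, both not shown, held no GATA motif and no E-box. CACCC boxes were in 9 of the 10, where 57.5% of all promoters held one, and Ldb1 had them too. E-boxes were in 2 of the 10 against 30.6% of all promoters, and the NF-E2 core TGAGTCA in 0 against 5.2%. No 2 matches overlapped in these windows. The windows of Gata1 and Bcl11a lie wholly inside the gene spans given above, so the upstream ends of those spans were not searched. A match is a description of the letters, not of binding.

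**Figure D1:**
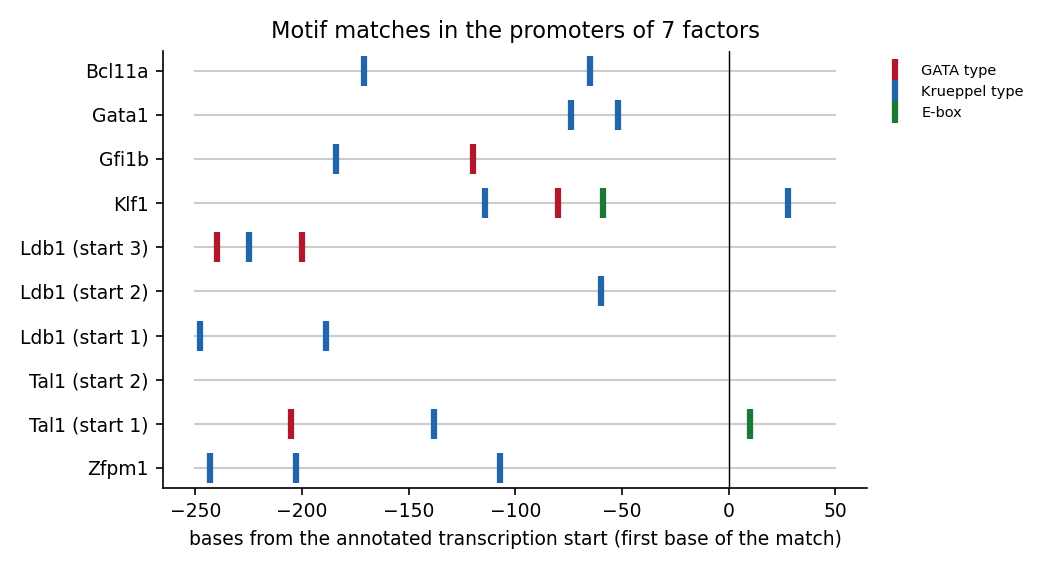
Positions of motif matches along the 10 promoters of 7 factors, in bases from the annotated start, drawn at the first base of each match and coloured by GATA motif, Krueppel type (the CACCC box) or E-box. Only in the Klf1 promoter do a GATA motif and an E-box lie at most 30 bases apart.

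Values for single libraries were not analysed here, but the authors' deposited table gives for each gene the highest value and the geometric mean over the 6 libraries beside both group means. Each group's 3 values must meet these figures, which bounds the value of each library without naming it. For 0 of the 23170 genes did the figures contradict each other. The values are normalized expression whose unit has no name in the file, with a smallest value of 1 that is treated here as an added floor. Levels of different genes are not read as relative amounts of RNA, since it is not known whether the values were scaled by gene length. Sums over lists, filters by mean level and the choice of named genes use the values as they stand.

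Among the DNA-binding factors, Gata1 stood at a mean of 4.24 after partial discectomy and 1.09 in sham per the authors' deposited table. Its partial discectomy libraries were at 5.32, between 4.43 and 4.57, and between 2.82 and 2.96, and every sham library was between 1 and 1.26. All 3 partial discectomy libraries were above all 3 sham libraries, which lay close to the floor. The ratio of Gata1 was 3.90 with 95% limits of 2.71 to 5.62 and an adjusted p of 0.00937 per the authors' deposited table.

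Klf1, the Krueppel-like factor that switches on adult beta globin, had means of 5.11 and 1.13 per the authors' deposited table. Its partial discectomy libraries were at 6.25, between 5.48 and 5.80, and between 3.27 and 3.59, and its sham libraries between 1 and 1.39. The groups did not overlap, and the lowest partial discectomy library was at least 2.59 times the highest sham library. The ratio of Klf1 was 4.52 (95% limits 3.07 to 6.67, adjusted p = 0.00937) by the authors' deposited table.

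Tal1, a basic helix-loop-helix factor needed to form blood and also made in endothelium, had means of 12.4 and 2.59 per the authors' deposited table. The highest partial discectomy library was at 19.6, the next between 8.76 and 12.0 and the lowest between 5.54 and 8.76, while the sham libraries lay between 1.56 and 3.79. One library stood well above the other partial discectomy libraries, and the groups were still apart. The ratio of Tal1 was 4.78 (95% limits 2.60 to 8.80, adjusted p = 0.0267) by the authors' deposited table, and 3.38 without that highest library.

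Nfe2 had means of 12.3 and 1.88 per the authors' deposited table. Its 3 partial discectomy libraries lay close together, at 13.6, between 11.6 and 13.6 and between 9.49 and 11.6, and its sham libraries between 1.36 and 2.46. The lowest partial discectomy library was at least 4.14 times the highest sham library, the widest separation among the 9 factors. The ratio of Nfe2 was 6.50 (95% limits 4.49 to 9.41, adjusted p = 0.00717) by the authors' deposited table. By size of the ratio Nfe2 ranked 33 of 23170.

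Gfi1b, a zinc finger repressor required in both lineages, had means of 2.91 and 1.11 per the authors' deposited table. Its partial discectomy libraries were at 3.89, between 3.14 and 3.24, and between 1.61 and 1.71, and its sham libraries between 1 and 1.33. The lowest partial discectomy library exceeded the highest sham library by at least 0.377, the narrowest separation among the 7 factors that rose. The ratio of Gfi1b was 2.62 (95% limits 1.69 to 4.08) with an adjusted p of 0.0483 per the authors' deposited table, just inside the threshold of 0.05.

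**Figure D2:**
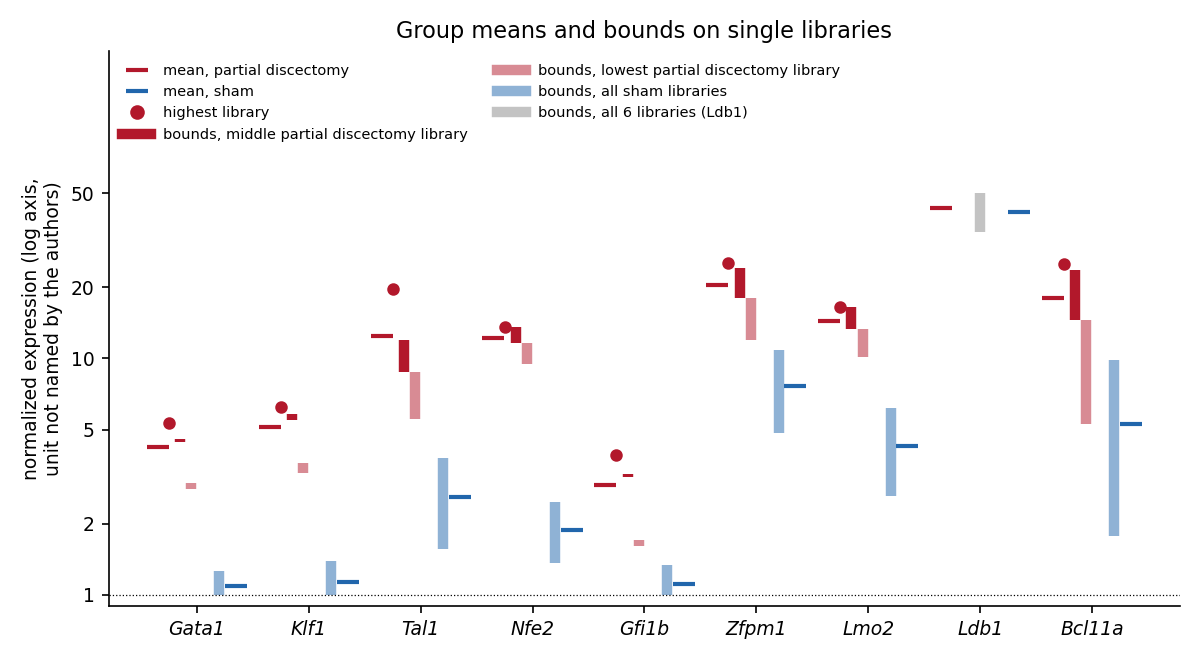
Normalized expression (log axis) of the 9 factors, with group means as short lines, the highest partial discectomy library as a point and bars for the bounds on the other libraries. For 7 factors every partial discectomy library lies above every sham library, for Bcl11a the bounds of both groups overlap, and for Ldb1 all 6 libraries lie between 34.2 and 50.3.

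Of the cofactors, Zfpm1 had means of 20.5 and 7.66 per the authors' deposited table. Its partial discectomy libraries were at 25.3, between 18.0 and 24.1, and between 11.9 and 18.0, and its sham libraries between 4.83 and 10.9. The groups did not overlap, and sham libraries were well above the floor. The ratio of Zfpm1 was 2.67 (95% limits 1.75 to 4.09, adjusted p = 0.0295) by the authors' deposited table. Gm20388, a gene model that spans all 55111 bases of Zfpm1 on the same strand, had a ratio of 1.02 per the authors' deposited table, and reads could have been split between both.

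Lmo2, the LIM-domain bridge between TAL1 and LDB1, which endothelial cells make too, had means of 14.3 and 4.28 per the authors' deposited table. Its partial discectomy libraries were at 16.4, between 13.3 and 16.4, and between 10.1 and 13.3, against sham libraries between 2.62 and 6.19. Lmo2 thus had no overlap and a small spread after partial discectomy. The ratio of Lmo2 was 3.35 (95% limits 2.16 to 5.19, adjusted p = 0.0137) by the authors' deposited table. It overlaps 4931422A03Rik on the other strand over 14936 bases, whose means were 1.26 and 1.07 per the authors' deposited table, and without stated strand counting such reads cannot be told apart.

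Ldb1, which many tissues make, had means of 43.3 and 41.4 per the authors' deposited table. All 6 of its libraries lay between 34.2 and 50.3, and the highest could belong to either group. The ratio of Ldb1 was 1.05 (95% limits 0.781 to 1.40, adjusted p = 0.918) by the authors' deposited table, limits that leave out a rise above 1.40-fold. Its log2 ratio of 0.06 became -0.02 when centred on the median of all genes. Whether Ldb1 differed in its ratio from the other members of its complex was not tested. Ldb1 shares 329 bases with Pprc1 on the other strand.

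Bcl11a, which B cells and plasmacytoid dendritic cells also make, had means of 18.0 and 5.26 per the authors' deposited table. Its partial discectomy libraries were at 25.0, between 14.5 and 23.7, and between 5.30 and 14.5, and its sham libraries between 1.77 and 9.84. For Bcl11a these bounds do not settle whether the groups overlapped. Its 95% limits were 1.67 to 7.03 per the authors' deposited table, the widest on the log scale among the 9, and the unadjusted p was 0.0021. Limits and adjusted p therefore fell on different sides of their thresholds for Bcl11a.

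**Figure D3:**
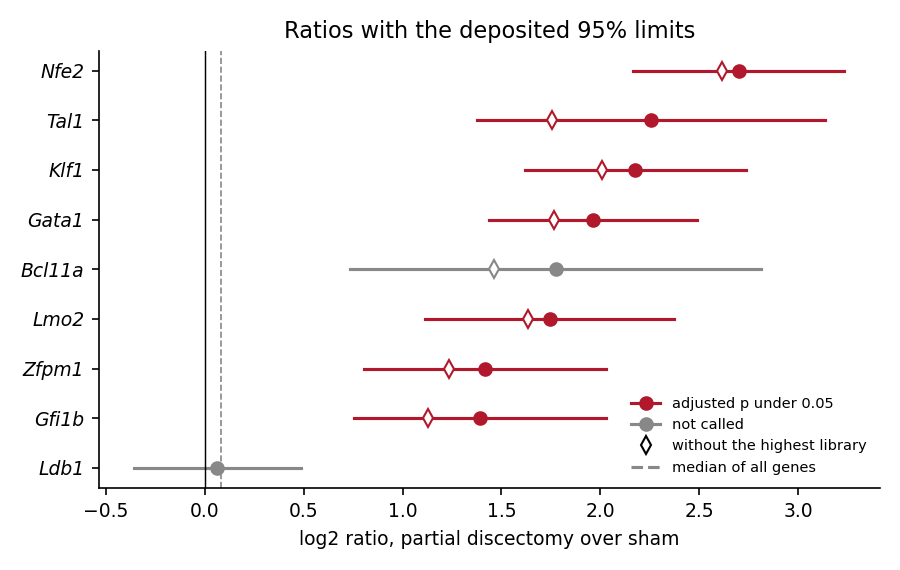
Log2 ratios of the 9 factors with their deposited 95% limits, in red where the adjusted p was under 0.05, and the ratio without the highest partial discectomy library as a diamond. Nfe2 is highest at 2.70, Ldb1 lies at 0.06, and no diamond falls outside its gene's limits.

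For the 7 factors that rose, all 3 partial discectomy libraries lay above all 3 sham libraries, also with no floor assumed, and 10.4% of all 23170 genes could be shown to do so. The same was true of all 528 genes called higher, so the separation does not set the factors apart from other called genes. The highest library of each of the 8 factors other than Ldb1 was in the partial discectomy group, and it held between 37.4% (Nfe2) and 54.6% (Tal1) of that group's total above the floor, where an even spread gives 33.3%. The median over the 8 was 43.5%, and 42.0% over the 10329 genes for which this library is known to be in that group. Leaving out the highest library gave ratios from 2.18 (Gfi1b) to 6.14 (Nfe2) for the 7. Over every single library that could be left out, the lowest possible ratio of the 7 was 2.18 for Gfi1b and 2.26 for Zfpm1, and that of Bcl11a was 2.57. The highest possible ratio of Bcl11a was 6.05 against 3.42 with all libraries. No test could be rerun without a library. By other rules, 8 of the 9 factors were higher at an unadjusted p under 0.05 (10.9% of all genes), and 8 each had 95% limits above 1 (11.1%), above the median ratio of all genes (8.11%) and above the ratio of the summed means (6.71%). Readjusted over genes with a mean at least 1 above the floor, 7 of 9 were called, against 3.22% of 15911 genes, and with at least 5 above it 4 of the 6 tested, against 2.27% of 10286. Among protein-coding genes 3.01% were called higher. For 0 of the 9 factors could the sham libraries be shown to lie above all partial discectomy libraries, as they could for 3.34% of all genes.

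Since the floor is part of both means, ratios near it are smaller than without it. With the floor subtracted, the ratios were 37.5 for Gata1, 31.9 for Klf1 and 17.3 for Gfi1b, whose sham means above the floor were only 0.0863, 0.129 and 0.111. These 3 ratios rest on sham values near the lowest that the table can show, and at unknown depth their size is not firm. For Nfe2 and Tal1 the ratios became 12.7 and 7.16, and for Lmo2, Zfpm1 and Bcl11a they were 4.07, 2.92 and 3.99. The order of the factors changed with this step, from Nfe2 as the highest to Gata1, while Ldb1 stayed lowest at 1.05.

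Of 12 other genes for members, cofactors or relatives of the Ldb1 and Tal1 complexes 1 rose, where 2.28% of all genes did. None of the 12 fell per the authors' deposited table. At an unadjusted p under 0.05, 3 of the 12 were higher, where 10.9% of all genes were, and the list's median log2 ratio was 0.18 against 0.08 for all genes. The 1 was Lyl1, the closest relative of Tal1, with a ratio of 2.78 (95% limits 1.92 to 4.05, adjusted p = 0.0151) by the authors' deposited table. The E-protein genes Tcf3 and Tcf12, whose products pair with TAL1, had ratios of 1.52 and 0.868 per the authors' deposited table, and Runx1, a factor of blood stem cells and megakaryocytes, had one of 1.14. Lmo4, Ssbp3 and Cbfa2t2, which encode relatives or cofactors of the complex, had 1.12, 1.11 and 0.916 per the authors' deposited table.

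None of 7 genes for small Maf partners and relatives of Nfe2 was called per the authors' deposited table. At an unadjusted p under 0.05 there was 1, higher, where 10.9% of all genes were. The small Maf genes Mafg, Mafk and Maff, whose products complete NF-E2, had ratios of 1.09, 1.22 and 0.982 per the authors' deposited table. Nfe2l1 and Nfe2l2, the stress factors related to Nfe2, had 0.943 and 0.945, and the repressors Bach1 and Bach2 had 1.10 and 1.60 per the authors' deposited table. The Mafg limits of 0.808 to 1.46 and the Mafk limits of 0.898 to 1.66 per the authors' deposited table lie below the lower limit of Nfe2, 4.49, and the difference was not tested.

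Of 12 co-repressor genes that GFI1B, FOG1 and BCL11A recruit, 0 were called by the authors' model and 1 was higher at an unadjusted p under 0.05 per the authors' deposited table, where 10.9% of all genes were. Chd4, Gatad2b and Mta2 of the NuRD complex had ratios of 1.22, 0.992 and 1.45 per the authors' deposited table. The median log2 ratio of this list was 0.18 and its range -0.02 to 0.54.

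Of 10 further red cell factors 1 rose, where 2.28% of all genes did, and none fell per the authors' deposited table, and the list's median log2 ratio was 0.17. The 1 was E2f2, which drives the last divisions of red cell precursors, with a ratio of 4.33 (95% limits 2.39 to 7.84, adjusted p = 0.0197) by the authors' deposited table. Klf3, Zbtb7a, Sox6 and Foxo3, which other tissues make as well, had ratios of 1.11, 1.14, 0.897 and 1.11 per the authors' deposited table. Nfix had one of 0.590 with an adjusted p of 0.277 per the authors' deposited table. At an unadjusted p under 0.05 Nfix was the only 1 of the 10 that was lower, as were 767 of all 23170 genes. At that threshold 4 of the 10 were higher, where 10.9% of all genes were. Picked after their values were seen, Ikzf1 and Myb, factors of many blood precursors, had ratios of 4.05 (adjusted p = 0.0528) and 3.65 (adjusted p = 0.114) by the authors' deposited table. Of 9 further megakaryocyte factors 0 were called and 2 were higher at an unadjusted p under 0.05 per the authors' deposited table, where 10.9% of all genes were. Fli1, which drives platelet genes, had a ratio of 1.57 (adjusted p = 0.229, 95% limits 1.10 to 2.26) per the authors' deposited table, Ets1 had 1.43 and Mrtfa 1.09.

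Red cell and platelet genes, many of them known targets of these factors, were counted in the same comparison. Of 31 red cell genes 18 rose, where 2.28% of all genes did, and none fell per the authors' deposited table. At an unadjusted p under 0.05, 28 were higher, where 10.9% of all genes were. Globin genes are among the 31 and have near-identical copies, so their single values are uncertain and not given. The median log2 ratio of the red cell list was 1.90 and its range 0.00 to 4.17. Slc4a1, the anion exchanger, and Hemgn, a nuclear protein under GATA1, had ratios of 18.0 and 9.08 per the authors' deposited table. Alas2, the red cell enzyme that starts heme synthesis, had 9.52 (95% limits 5.69 to 15.9), and the membrane skeleton gene Sptb had 3.74 per the authors' deposited table. Fech, the last heme enzyme, had 1.77 with an adjusted p of 0.0722, and Tfrc, the transferrin receptor of all dividing cells, 1.81 with 0.219 per the authors' deposited table. By median, 50.2% of the partial discectomy total came from the highest library in the 30 red cell genes where it is known to be in that group.

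Of 18 platelet and megakaryocyte genes 11 rose, where 2.28% of all genes did, and none fell per the authors' deposited table. The list's median log2 ratio was 0.99. At an unadjusted p under 0.05, 16 of the 18 were higher, where 10.9% of all genes were. Rab27b was lower at that threshold, as were 767 of all 23170 genes. Readjusted over genes with a mean at least 1 above the floor, 5 of the 11 still tested were called, against 3.22% of 15911 genes. With at least 5 above it 1 of 4 was called, against 2.27% of 10286 genes. Ppbp, a platelet chemokine, had a ratio of 15.7, Itga2b, the platelet integrin, 3.16, Pf4 2.82, and Tubb1, a platelet tubulin known as a target of NF-E2, 2.76 per the authors' deposited table. Gp6, a receptor for collagen, had 2.78 from a sham mean of 1.05 per the authors' deposited table. The sham mean of Tubb1 was 1.03. Both sham means were close to the floor, so the size of the Gp6 and Tubb1 ratios is not firm. Itgb3, which osteoclasts also make, had 1.77 (adjusted p = 0.315) and Rab27b 0.710 (adjusted p = 0.306) by the authors' deposited table.

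**Figure D4:**
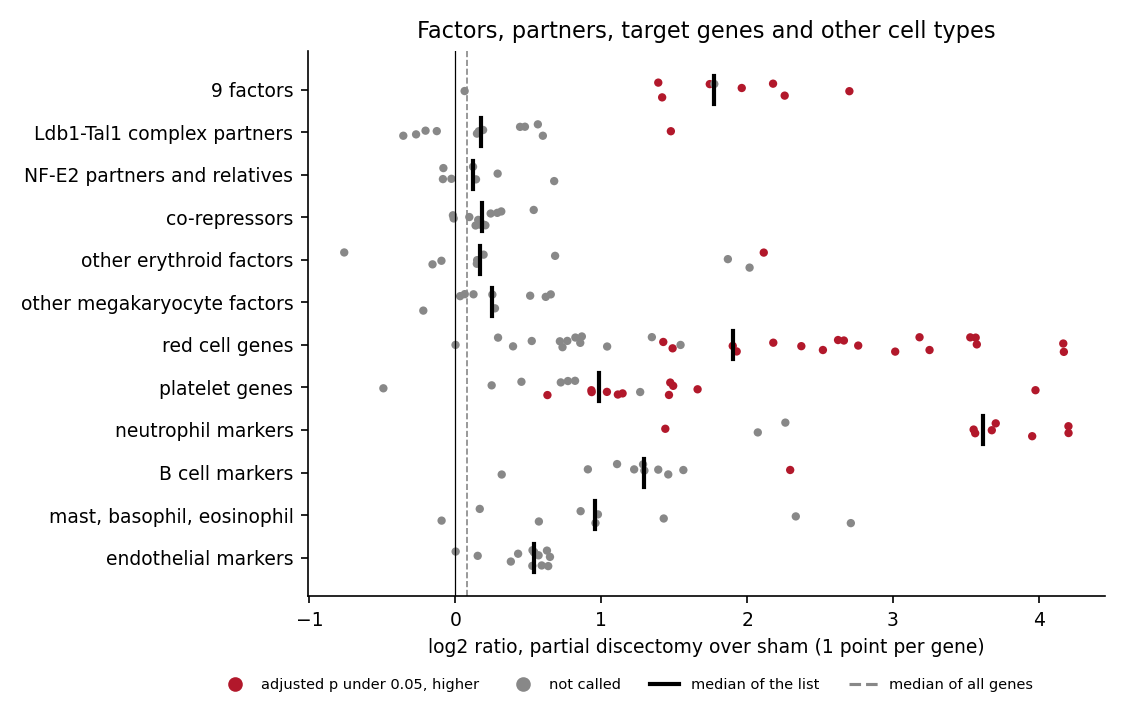
Log2 ratios of the 9 factors, their partners, red cell and platelet genes and markers of other cell types, 1 point a gene, in red where called higher, with list medians as black lines. The medians of partners and co-repressors lie between 0.12 and 0.18, those of the factors and red cell genes at 1.78 and 1.90. That of the neutrophil markers lies at 3.62.

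Markers of other cell types were set beside the factors, and their part in the results of the factors was not tested. For the counts below, 2.28% of all genes were called higher and 10.9% were higher at an unadjusted p under 0.05. Of 10 neutrophil markers 8 rose and 10 were higher at an unadjusted p under 0.05, with a median log2 ratio of 3.62. Their summed means above the floor were, per the authors' deposited table, 1330 after partial discectomy and 102 in sham. Of 10 B cell markers, which bear on Bcl11a, 1 rose (Igll1, ratio 4.91) and 9 were higher at an unadjusted p under 0.05, with sums of 172 and 91.6 per the authors' deposited table. Ebf1 alone, with a ratio of 1.25, made up 70.2 and 56.1 of these sums. The median log2 ratio of the B cell list was 1.29. Cd79a of that list, a part of the B cell receptor, had a ratio of 2.95 per the authors' deposited table. Of 7 plasmacytoid dendritic cell markers 0 were called and 1 was higher at an unadjusted p under 0.05, with sums of 37.2 and 22.0 per the authors' deposited table. Of 9 mast cell, basophil and eosinophil markers, cells that also use Gata1, 0 were called and 7 were higher at an unadjusted p under 0.05, with sums of 34.4 and 6.29 per the authors' deposited table. Among these, the eosinophil granule genes Epx and Prg2 had the 2 highest ratios of that list, 6.55 and 5.04, with adjusted p of 0.0717 and 0.104 per the authors' deposited table. A single library, the highest, made up 69.9% of the partial discectomy total above the floor for Epx and 57.8% for Prg2, and without it the ratios were 3.31 and 3.32. The list's median log2 ratio was 0.96, and Mcpt4, a mast cell protease picked after its value was seen, had a ratio of 0.937 per the authors' deposited table. The Mcpt4 means of 1.03 and 1.10 were both close to the floor. Of 13 endothelial markers, which bear on Tal1 and Lmo2, 0 were called and 2 were higher at an unadjusted p under 0.05, with sums of 337 and 241 and no ratio above 1.57 per the authors' deposited table. Of 9 bone markers 0 were called and 0 had an unadjusted p under 0.05, 8 of the 9 had a ratio above 1, and their median log2 ratio was 0.63 per the authors' deposited table. Their sums of 38127 and 30418 were mostly Col1a1, whose means above the floor were 34179 and 27782 per the authors' deposited table. In none of these lists was a marker exactly at the floor in either group, bone markers of the labelled tissue included, though some, such as Mcpt4, lay close to it.

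Among the genes of the authors' deposited table, the nearest protein-coding gene that does not overlap the factor was taken on each side of the 9 factors. The gaps ran from 1519 bases, between Nfe2 and Hnrnpa1, to 1428639 bases, between Bcl11a and 5730522E02Rik. A neighbour is therefore not always the adjacent gene of the genome. Of these 18 neighbours 1 rose, where 3.01% of all protein-coding genes did, and none fell per the authors' deposited table, with a median ratio of 1.17. The 1 was Pdzk1ip1, which lies 16952 bases beyond the end of Tal1 on the same strand and whose ratio was 2.32 (adjusted p = 0.0104, 95% limits 1.79 to 3.01) from means of 2.58 and 1.11 per the authors' deposited table. Stil, on the other side of Tal1, had a ratio of 1.64 (adjusted p = 0.285, 95% limits 1.05 to 2.55) per the authors' deposited table. Dnase2a, 3268 bases from Klf1, had 1.17, Hnrnpa1, 1519 bases from Nfe2, had 1.12, and Hdac6, 11370 bases from Gata1, had 1.18 per the authors' deposited table. For 8 of the 9 factors the ratio was above those of both neighbours, Ldb1 being the exception, and these differences were not tested.

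**Figure D5:**
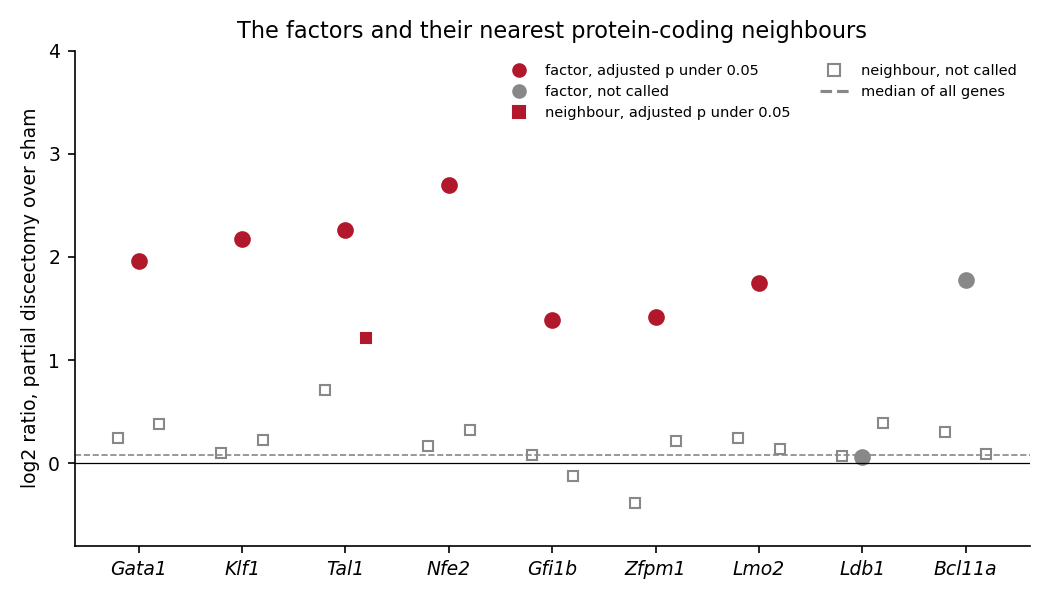
Log2 ratios of the 9 factors (circles) and of the nearest protein-coding gene of the deposited table on each side that does not overlap the factor (squares), filled red at an adjusted p under 0.05. Of 18 neighbours only Pdzk1ip1 beside Tal1 is called, and 8 factors lie above both neighbours.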

How the data were processed

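RNA from mouse condylar subchondral bone was measured by sequencing in 6 libraries, 3 after partial discectomy and 3 after sham operation, grouped by sample title. The aligner STAR 2.6.1d and the build mm10 are listed per the submitters' processing notes; for the read counter, gene filter, normalization and statistical model, no step is given in the sources used here. The authors deposited 1 table of signal values (group means, highest value, total, geometric and arithmetic mean over the libraries), with a ratio, its log2 value, a p-value and an adjusted p. The deposited fold change and its 95% limits are signed and were treated as a score, then turned into ratios. A second deposited file held gene positions only and was not used. Library depth is unknown, so no interval that needs it is given. The planned count test and fit by replicate number could not be run without values per library, and the authors' statistics take their place.

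Benjamini-Hochberg adjustment over all 23170 genes gave the deposited adjusted p, and a gene was called at an adjusted p under 0.05. Bounds on single libraries follow from group totals, highest value and geometric mean, with every library at 1 or more; the method was tested on simulated data. The 9 genes and 14 comparison lists (167 of 171 genes in the table) were chosen with earlier results of these data known. Genes named from a list are those called and the 6 with the highest mean, and all genes of lists with few members. Motifs were searched in RefSeq promoters of 300 bases. Protein sequences were not used here. Python 3.11.15, numpy 2.4.6 and pandas 2.3.3 were used. Alternatives were low-value filters, other call rules, other centres, the floor removed and libraries left out.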

Additional observations from a re-analysis of the deposited data

How the results depend on the processing

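Of the 9 factors 7 were called at first, where 2.28% of all genes were called higher. Readjusting the deposited p-values over genes with a mean at least 1 above the floor again called 7, against 3.22% of 15911 genes. With a mean of at least 5 above the floor only 6 factors were tested, because Gata1, Klf1 and Gfi1b fall below that mean. Of these 6, 4 were called, against 2.27% of 10286 genes. The deposited 95% limits lay above 1, above the median ratio of all genes and above the ratio of the summed group means for 8 factors each, and 8 had an unadjusted p under 0.05, Bcl11a being the addition. The median log2 ratio of the 9 was 1.78, 2.84 with the floor subtracted and 1.64 when centred on the summed group means. Single-library omissions left the log2 ratio of a called factor between 1.13 (Gfi1b) and 2.94 (Nfe2). No such ratio turned sign in any alternative run. With the groups apart, omitting a library could not have turned one, nor could subtracting the floor. With a mean of at least 1 above the floor, 3.22% of all genes tested were called higher. So were 2 of 10 other red cell factors, 5 of 11 megakaryocyte genes and 1 of 8 stem and progenitor markers. With at least 5 the share of all genes tested was 2.27%. The numbers were then 1 of 4 megakaryocyte genes, 0 of 8 B cell markers and 0 of 4 stem and progenitor markers. Fewer genes were tested in each. Separation of the groups for 7 factors held with a lowest library value of 0, an alternative chosen after seeing the data. No paired analysis was possible because the table holds no values per library (the descriptions share the number 6 alone), and the edgeR and DESeq2 fits were not run for the same reason. Depth limits what can be said of the 3 factors whose sham means lie within 0.129 of the floor.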

Other observations

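Of 10 markers of blood stem and progenitor cells 2 rose after partial discectomy, where 2.28% of all genes did, and none fell by the authors' deposited table. The median log2 ratio of the 10 was 0.74. At an unadjusted p under 0.05, 7 of them were higher, where 10.9% of all genes were. The 2 were Flt3, a receptor of early lymphoid and myeloid precursors, with a ratio of 2.30 (95% limits 1.76 to 3.01, adjusted p = 0.0104) and Slamf1, a surface marker of blood stem cells, with 1.97 (adjusted p = 0.0104, 95% limits 1.59 to 2.45) by the authors' deposited table. Slamf1 had means of 2.15 after partial discectomy and 1.09 in sham, the latter close to the floor, so the size of its ratio is not firm. Spi1, a myeloid factor that opposes GATA1, had a ratio of 2.37 with an adjusted p of 0.0752 by the authors' deposited table. Cd34, which endothelium also makes, had a ratio of 0.881 and Ly6a one of 0.709 by the authors' deposited table, neither of them called.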
